A study of Homo sapiens with 15 samples.

Results

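The elastic fibre genes described here are 10 of the 57272 genes counted in MRC-5 cells, a human fetal lung fibroblast line with a finite lifespan: ELN, FBN1, FBN2, FBLN1, FBLN2, FBLN5, EFEMP2, MFAP4, MFAP5 and LOX. They were chosen by name after a look at these data, because ELN was well counted in young libraries and nearly absent from senescent ones. Their differences between young and senescent cells are therefore given as a description, without a test. Comparisons within the young cells or within the senescent cells were not used for the choice and were tested.

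The 15 RNA-seq libraries fall into 5 conditions of 3 replicates. The 3 young conditions were cells at PD 30 (population doubling 30) that carried an empty viral vector, pWPIR-GFP, with a control siRNA, the same vector with TRF2 and the control siRNA, or the empty vector with an siRNA against LMNB1 (siLMNB1). The 2 senescent conditions carried the empty or the TRF2 vector, were grown until division stopped, and then received the control siRNA. The labels place their infection at a pre-senescent stage, whereas the methods of the study place that of the TRF2 cells many population doublings before arrest. By the same methods, TRF2 cells were collected at a later population doubling than the senescent controls, so in senescent cells TRF2 and the added doublings cannot be told apart. The study places the infection of the young cells only days before collection. Where the effect of TRF2 is compared between the states, state and length of exposure to TRF2 therefore cannot be told apart. TRF2, encoded by TERF2, is a shelterin protein that protects telomeres, and LMNB1 encodes lamin B1 of the nuclear lamina. All 15 libraries thus come from 1 cell line with a GFP-bearing vector and an siRNA. The study calls the replicates biological, but neither it nor the labels say how their cultures were separated, so the p-values measure the spread between these libraries. In the main fit that spread was estimated for each gene over all 15 libraries together, also for comparisons within a state. The labels mark every senescent library as a reanalysis of an earlier deposit. Senescence and deposit cannot be told apart in any comparison of the 2 states.

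Elastic fibres give lung, arteries and skin their recoil. A core of cross-linked elastin forms on a scaffold of fibrillin microfibrils, fibulins and microfibril-associated glycoproteins help to place the elastin there, and lysyl oxidase joins its monomers through modified lysines. Lung fibroblasts make most of these components during development, and elastin itself is long-lived and little renewed in adult tissue.

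Total counts per library lay between 26725885 and 43116046, and all 10 genes passed the filter on low counts together with 15799 genes in all. MFAP5 passed it through the senescent libraries, with 0 to 16 counts in any library. TERF2 stood at 23.8 ± 1.81 CPM (counts scaled by the total of the library; mean ± SD, n = 3) in young cells with the empty vector and at 195 ± 97.7 CPM in young cells with TRF2. In senescent cells it stood at 25.0 ± 1.47 CPM with the empty vector and 235 ± 43.6 CPM with TRF2. LMNB1 stood at 59.7 ± 1.20 CPM in young cells with the empty vector, 2.67 ± 0.281 CPM with siLMNB1 and 5.13 ± 0.526 CPM in senescent cells with the empty vector. The 8 fibroblast markers summed to 20121 to 33513 CPM in every library, whereas the 4 blood and immune markers summed to 0.264 CPM at most, with CD3E at 0 throughout. The 4 endothelial markers summed to 1.49 to 4.15 CPM and the 5 epithelial markers to 32.5 to 67.1 CPM, with PECAM1, CDH5 and CDH1 at 0 in some libraries. Relative to the mean of the young empty-vector libraries, log2 CPM rose with the GC content of genes. The slope was 0.352 to 0.384 per 10 points of GC in all senescent libraries but one. It was -0.0055 to 0.107 in the young libraries, of which those with the empty vector are their own reference. The exception was senescent empty-vector replicate 3, at 0.642, whose label also points to a record numbered apart from the others.

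Promoter windows from RefSeq (GRCh38.p14) were at hand for 7 of the 10 genes, and no window was at hand for ELN, MFAP4 and MFAP5. The windows of FBN2 and FBLN2 are shown because both genes rose with siLMNB1, and that of FBN1 because this close relative of FBN2 did not pass the same test. Each is the 250 bases before an annotated start, 5′ to 3′ on the strand of the gene, and holds no base of an exon of GENCODE 44. FBLN2 has a second RefSeq start downstream, whose window is described but not printed. The windows of FBN2 and FBN1 lie inside these genes as GENCODE 44 places them. There the genes reach upstream to base 128659185 of chromosome 5 and base 48645721 of chromosome 15. Capitals mark matches, on either strand, to the TATA box TATAAA, the GC box GGGCGG, the E-box CACGTG, the AP-1 motif TGANTCA and the CCAAT box CCAAT, where GC box matches may overlap each other.
FBN2, chr5:128538246-128538495, minus strand: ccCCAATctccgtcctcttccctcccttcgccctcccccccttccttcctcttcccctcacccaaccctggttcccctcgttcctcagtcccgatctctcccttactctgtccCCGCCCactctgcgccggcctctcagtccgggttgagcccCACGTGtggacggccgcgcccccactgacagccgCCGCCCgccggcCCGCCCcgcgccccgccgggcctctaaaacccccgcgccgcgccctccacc
FBLN2, chr3:13548875-13549124, plus strand: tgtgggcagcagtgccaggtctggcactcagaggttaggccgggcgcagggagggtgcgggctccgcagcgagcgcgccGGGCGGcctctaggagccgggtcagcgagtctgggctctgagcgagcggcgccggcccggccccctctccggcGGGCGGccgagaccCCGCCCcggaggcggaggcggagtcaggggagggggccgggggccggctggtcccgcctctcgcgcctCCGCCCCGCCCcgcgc
FBN1, chr15:48644971-48645220, minus strand: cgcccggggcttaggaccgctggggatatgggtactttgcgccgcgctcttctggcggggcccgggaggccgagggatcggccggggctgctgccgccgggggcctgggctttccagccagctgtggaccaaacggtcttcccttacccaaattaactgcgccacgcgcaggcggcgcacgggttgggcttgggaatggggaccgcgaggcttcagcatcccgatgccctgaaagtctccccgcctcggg
The FBN2 window held 3 GC boxes, 1 E-box and 1 CCAAT box, the FBLN2 window shown held 5 GC boxes, and that of FBN1 held none of the 5 motifs. The second FBLN2 window (chr3:13568490-13568739) also held none of the 5 motifs, with 66.0% GC and 11 CpG dinucleotides. For none of the 3 genes do the counts tell which start was used. Of all 35116 RefSeq windows of this length, 42.6% held a GC box, 32.0% a CCAAT box, 10.7% a TATA box, 6.6% the AP-1 motif and 6.3% the E-box. The 3 windows shown were richer in GC, at 72.8%, 80.4% and 69.6% in the order shown, than the median window at 58.0%, and held 25, 33 and 25 CpG dinucleotides against a median of 11. These matches describe the letters of each window only.

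Per length, the order of the 10 genes differed between the young and the senescent cells. In young cells with the empty vector, LOX, the lysyl oxidase, led at 81.0 CPM per kb of exons, ahead of the fibrillin FBN1 at 51.3, the fibulin EFEMP2 at 36.8 and FBLN5 at 28.5 CPM per kb. MFAP4 at 23.1, FBLN1 at 16.7, FBN2 at 11.6, ELN at 4.64 and FBLN2 at 1.89 CPM per kb followed, and MFAP5 was last at 0.0293 CPM per kb. No pair of neighbours in that order overlapped in their 3 libraries. In senescent cells with the empty vector, EFEMP2 led at 100 CPM per kb and ELN was last at 0.0261 CPM per kb. There the libraries of EFEMP2 overlapped those of MFAP4 next to it, and the same held for FBN1 beside FBLN1 and for FBLN2 beside FBN2. With TRF2 in senescent cells, MFAP4 stood first at 120 CPM per kb, with libraries that overlapped those of EFEMP2, and ELN was again last at 0.0432 CPM per kb.

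**Figure D1:**
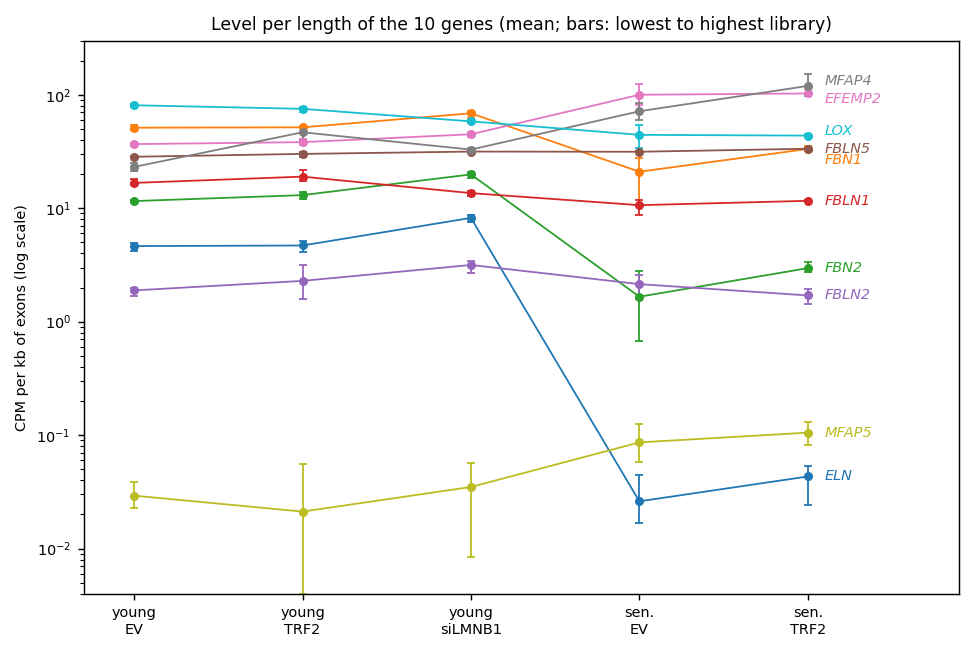
Mean level of each elastic fibre gene in CPM per kb of exons, on a log axis, in the 5 conditions, with bars from the lowest to the highest of 3 libraries (a library at 0 is drawn to the lower edge of the axis). ELN runs from 4.64 CPM per kb in young cells with the empty vector to 8.22 with siLMNB1 and to 0.0261 in senescent cells with the empty vector, and MFAP4 and EFEMP2 stand highest in both senescent conditions.

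ELN encodes tropoelastin, the monomer of the elastic core, and lies on the plus strand of chromosome 7 at bases 74027789 to 74069907 of GRCh38. The young libraries with the empty vector held 790, 1067 and 877 ELN counts, or 27.5, 31.3 and 32.6 CPM. Those with TRF2 held 1256, 920 and 996 counts, and those with siLMNB1 held 1671, 1603 and 2630 counts. The senescent libraries with the empty vector held 3, 3 and 9 counts, and those with TRF2 held 5, 11 and 12 counts. Every senescent library thus lay far below every young one. The summed counts of the senescent empty-vector libraries came to 0.58% of the young level after scaling for library size, with an exact 95% interval of 0.324% to 0.959%. With TRF2 in both states this ratio was 0.924%, with an interval of 0.613% to 1.34%. These intervals cover counting error only. The fitted log2 difference was -7.40 with the empty vector and -6.74 with TRF2.

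The scaffold genes were also lower in the senescent libraries, to a lesser degree. FBN2, the fibrillin of developing tissue, stood at 204, 205 and 210 CPM in young cells with the empty vector and at 50.2, 26.7 and 12.0 CPM in senescent ones, a log2 difference of -2.80. FBN1, the main fibrillin of microfibrils, stood at 913, 940 and 999 CPM against 511, 462 and 195 CPM, a log2 difference of -1.29. The lowest value of both genes came from replicate 3, and without it the log2 differences were -2.45 and -0.99. Without replicate 1 they were -3.43 and -1.54. With TRF2 in both states, the log2 differences were -2.14 for FBN2 and -0.63 for FBN1.

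The microfibril-associated MFAP4 went the other way. It stood at 53.1, 47.9 and 45.0 CPM in young cells with the empty vector and at 176, 126 and 150 CPM in the senescent ones, a log2 difference of 1.63, and the groups did not overlap. With TRF2 in both states the log2 difference was 1.36. MFAP5, also named MAGP-2, was too low to be read, at 3 to 4 counts in the young and 7 to 13 counts in the senescent libraries with the empty vector. Its log2 differences of 1.54 and 2.19 follow from counts of this size.

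Of the 4 fibulin family members, EFEMP2 (fibulin-4), which is required for elastin cross-linking, was higher in senescent cells with the empty vector, at 515, 440 and 667 CPM against 202, 202 and 191 CPM, a log2 difference of 1.45. FBLN1, a protein of elastic fibres and basement membranes, was lower, by -0.65 on the log2 scale. FBLN5, which binds tropoelastin and integrins, differed by 0.15 and FBLN2 by 0.19, and the FBLN2 libraries of the 2 states overlapped. LOX stood at 468, 458 and 434 CPM in young cells and at 252, 305 and 189 CPM in senescent ones, a log2 difference of -0.87. With TRF2 in both states the log2 differences were 1.43 for EFEMP2, -0.71 for FBLN1, 0.15 for FBLN5, -0.42 for FBLN2 and -0.78 for LOX.

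With the empty vector, the libraries of the 2 states did not overlap for 9 of the 10 genes, all but FBLN2, while 64.7% of all genes tested did not overlap. With TRF2 the number was again 9 of 10, beside 71.4% of all genes. The members were chosen on this contrast, so nothing is read from these counts. The median log2 difference of the 10 genes was -0.25 with the empty vector and -0.53 with TRF2, and that of all genes was 0.02 and -0.02. Offsets for GC content and length moved several of these values. With the empty vector, EFEMP2 went from 1.45 to 0.70, LOX went from -0.87 to -0.38, FBLN1 from -0.65 to -1.20 and FBLN2 from 0.19 to -0.55. ELN stood at -8.04 under the same offsets. In bulk RNA, fewer cells that express a gene and less of its RNA per cell cannot be told apart. The summed level of 4 markers of dividing cells was 406 to 434 CPM in young and 52.2 to 63.2 CPM in senescent cells with the empty vector, and the summed level of the 4 smooth muscle and pericyte markers was 49.8 to 53.4 CPM and 93.0 to 125 CPM. The part of either list in these differences was not tested.

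**Figure D2:**
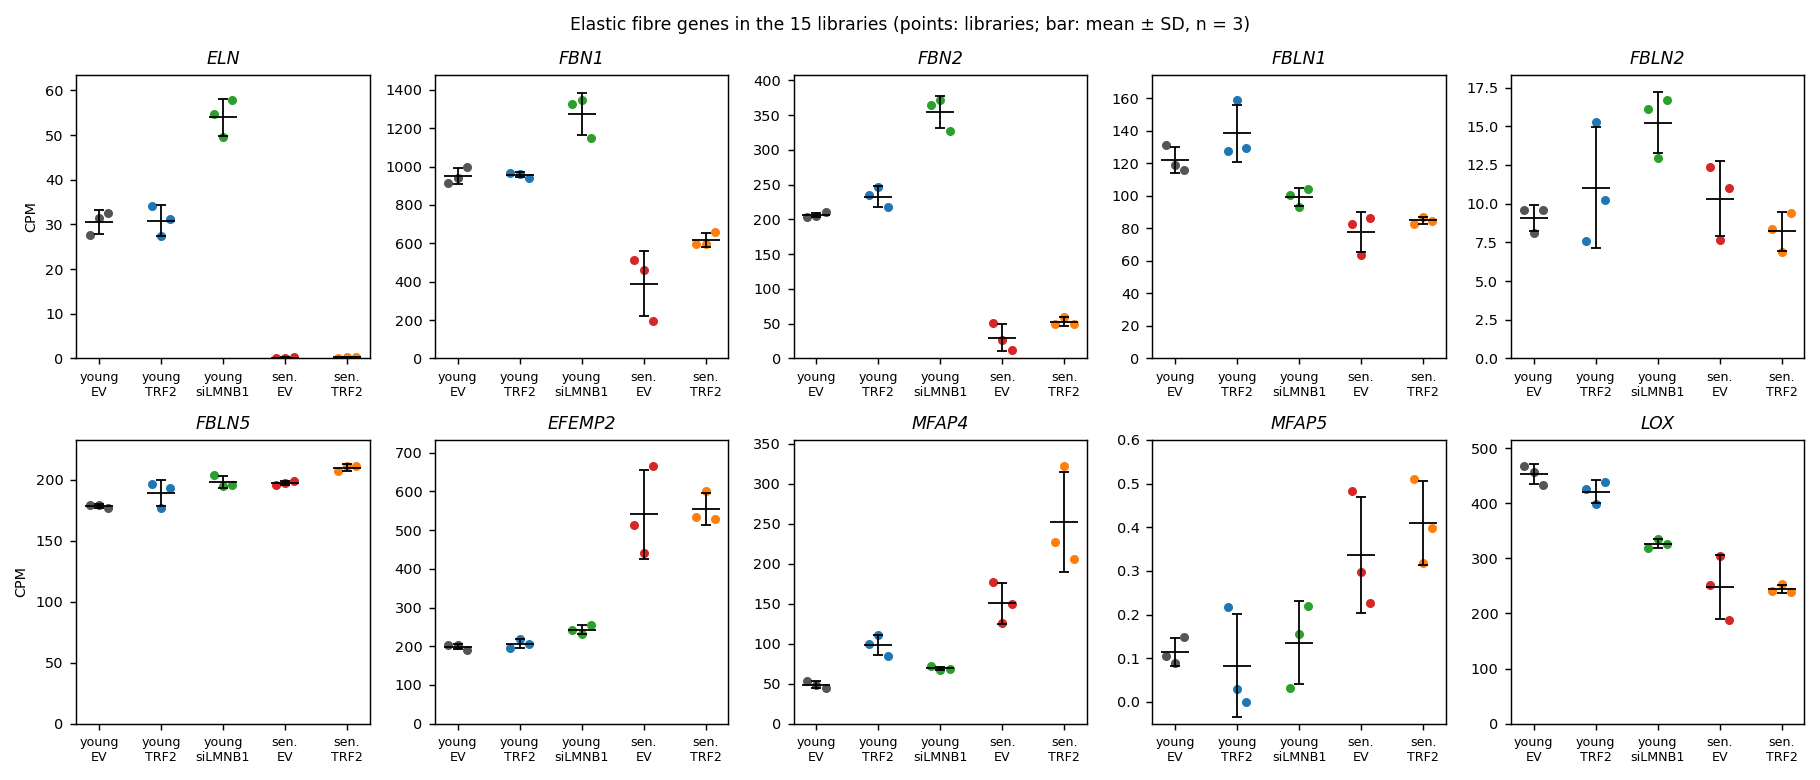
CPM of each elastic fibre gene in the 15 libraries, with 1 panel per gene, the 5 conditions on the x axis, a point for each library and the mean ± SD of 3 libraries as a bar. ELN lies between 27.3 and 57.8 CPM in the 9 young libraries and at 0.35 CPM or less in the 6 senescent ones, while MFAP4 and EFEMP2 are highest in the senescent libraries.

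Because ELN was nearly absent from the libraries of the earlier deposit, its counting was examined. Of 9650 annotated genes with at least 5 CPM in each young library, 85 (0.881%) had every senescent library under 10% of the lowest young library. This pattern went with overlap between genes. It was found in 8 of 6811 genes (0.117%) that share no more than 5% of their exonic bases with another gene, in 7 of 1935 (0.362%) with 5% to 20%, in 24 of 748 (3.21%) with 20% to 50%, and in 46 of 156 (29.5%) with more than 50%. Among genes with more than 20% overlap on the same strand only, 52 of 269 (19.3%) had the pattern, beside 12 of 567 (2.12%) with such overlap on the opposite strand only. The reverse pattern, young libraries under 10% of senescent ones, was found in 21 of 9438 genes, of which 3 overlapped by more than 20%. Of the 85 genes, 70 shared more than 20% of their exonic bases with another gene.

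ELN is not such a gene in GENCODE 44. Its only exonic overlap is with ELN-AS1 on the opposite strand, over 165 bases or 2.51% of its exonic bases, and ELN-AS1 itself had 0 to 4 counts in any library. The other genes of the low-overlap class with the pattern were POSTN, SULF1, PCDH10, HEPH, TNFAIP6, ATXN7 and SLC7A14. POSTN, which encodes the matrix protein periostin, stood at 64.4 CPM in young and 4.04 CPM in senescent cells with the empty vector. Sorted by log2 difference alone, the protein-coding genes nearest to ELN among those with 10 CPM or more in young cells were OPN1SW (-7.46), NUSAP1 (-7.29), NOP2 (-7.57), RNASEH2A (-7.64) and ST6GALNAC6 (-6.88). Their exonic overlap was 15.8%, 86.8%, 54.4%, 53.3% and 47.0%, in the same order. The 10 tested protein-coding genes closest to ELN on chromosome 7, 5 on each side, had log2 differences between -1.13 (RFC2) and 1.24 (METTL27). METTL27, LAT2 and CLDN4 stood at 0.457, 0.478 and 1.65 CPM in young cells with the empty vector, too low to show a drop like that of ELN. Among the better counted neighbours no such drop was seen. The annotation and strand setting of the deposited counts are not given in the sources used here, and whether ELN was counted alike in both deposits was not tested.

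**Figure D3:**
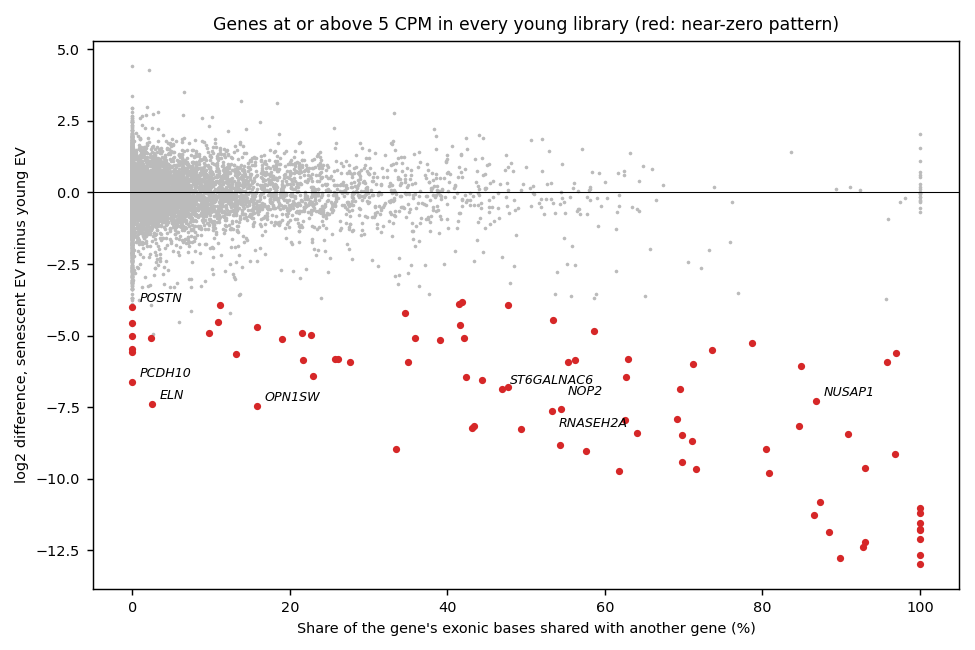
The log2 difference, senescent minus young, of the empty-vector cells (y axis) against the share of the gene's exonic bases that another gene shares (x axis, %), for the tested genes with at least 5 CPM in every young library. Red points mark genes whose senescent libraries all lie under 10% of the lowest young library. ELN, at 2.51% and -7.40, lies at the left, whereas most red points lie to the right of 20%.

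None of the other 9 genes shared more than 4.9% of its exonic bases with another gene. That maximum was MFAP4 with MAPK7 on the opposite strand, over 103 bases, followed by LOX with SRFBP1 at 2.47% and MFAP5 with the pseudogene HADHAP2 at 1.67%. FBN1, FBLN1, FBLN2 and FBLN5 shared none.

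Lamin B1 depletion in young cells was compared next, to ask whether the elastic fibre genes differed in young cells that received siLMNB1. Loss of lamin B1 and other effects of this siRNA cannot be told apart here. Of the 10 genes, 4 rose with siLMNB1, ELN, FBN2, FBLN2 and MFAP4, and LOX fell. Over all genes, edgeR's quasi-likelihood test called 32.5% at an adjusted p below 0.05, with 16.4% higher and 16.1% lower, so that 5 of 10 stands beside a background of about 1 gene in 3. ELN rose from 27.5, 31.3 and 32.6 CPM to 54.8, 49.6 and 57.8 CPM, and the 2 groups did not overlap. Its log2 fold change was 0.83 with an SE of 0.13 (edgeR adjusted p = 0.000149). LOX fell from 468, 458 and 434 CPM to 319, 334 and 327 CPM, a log2 fold change of -0.47 with an SE of 0.12 (edgeR adjusted p = 0.00681).

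The other calls with siLMNB1 were less firm. FBLN2, a fibulin that binds elastin and fibrillin, rose from 9.59, 8.13 and 9.56 CPM to 16.1, 13.0 and 16.7 CPM (log2 fold change 0.75, SE 0.22, edgeR adjusted p = 0.015). MFAP4 rose from 53.1, 47.9 and 45.0 CPM to 71.5, 67.5 and 68.6 CPM (log2 fold change 0.51, SE 0.15, edgeR adjusted p = 0.019). FBN2 rose from 204, 205 and 210 CPM to 365, 371 and 328 CPM (log2 fold change 0.78, SE 0.29, edgeR adjusted p = 0.0496). The call of FBN2 was lost without any 1 of the 6 libraries and with DESeq2 (adjusted p = 0.0754), over a range of 3.84e-13 to 0.115 across the alternatives. MFAP4 lost its call without young empty-vector replicate 2 or 3 or siLMNB1 replicate 1, and FBLN2 without young empty-vector replicate 2 or siLMNB1 replicate 3. ELN and LOX kept theirs under every alternative run with the threshold on adjusted p alone.

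FBN1 stood at 1329, 1345 and 1149 CPM with siLMNB1, all above the 3 control libraries, but with a log2 fold change of 0.42 and a 95% interval of -0.05 to 0.89 it did not pass (edgeR adjusted p = 0.159). Over the alternatives its adjusted p ran from 1.02e-07 to 0.292. FBLN1 had a log2 fold change of -0.30 (edgeR adjusted p = 0.0513), EFEMP2 of 0.29 (edgeR adjusted p = 0.0705) and FBLN5 of 0.15 (edgeR adjusted p = 0.0942). The libraries with and without siLMNB1 did not overlap for 9 of the 10 genes, all but MFAP5, beside 57.4% of all genes. The median log2 fold change was 0.38 over the 10 genes and 0.04 over all genes. The 4 markers of dividing cells all fell, from a sum of 406 to 434 CPM to 200 to 206 CPM. The smooth muscle and pericyte markers summed to 49.8 to 53.4 CPM and to 92.5 to 113 CPM, mostly from ACTA2. The 8 fibroblast markers summed to 23099 to 24299 CPM and to 30929 to 33513 CPM. Of these 8, 4 were called higher and 2 lower, beside 16.4% and 16.1% of all genes. The part of these lists in the results was not tested.

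TRF2 was compared with the empty vector in each state, to ask what this shelterin protein changes in cells that are or are not senescent. MFAP4 rose in both, and it was the only elastic fibre gene that passed in either. In young cells it rose from 53.1, 47.9 and 45.0 CPM to 99.4, 111 and 84.8 CPM, a log2 fold change of 1.01 with an SE of 0.16 (edgeR adjusted p = 0.0112). There 0.177% of all genes were called, a share that ran from 0.00615% with 1 library left out to 1.08% with DESeq2 and 3.3% with only those 6 libraries fitted. In senescent cells it rose from 176, 126 and 150 CPM to 227, 322 and 206 CPM, a log2 fold change of 0.74 with an SE of 0.15 (edgeR adjusted p = 0.00615), where 11.3% of genes were called, 4.87% higher and 6.41% lower. Neither comparison had overlapping libraries for MFAP4. The young TRF2 and siLMNB1 comparisons share their 3 control libraries, and the senescent comparison shares none with them.

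The call of MFAP4 in young cells did not hold when control replicate 2 or 3 or TRF2 replicate 1 or 2 was left out, with log2 fold changes of 0.92 to 1.00 and adjusted p of 0.0723 to 0.0997. Its log2 fold change over the alternatives was 0.92 to 1.11, and the adjusted p ran from 9.07e-15 to 0.0997. In senescent cells the call was lost only when the fit held those 6 libraries alone (log2 fold change 0.75, adjusted p = 0.135), and the other alternatives gave 0.53 to 0.93 with adjusted p from 4.37e-09 to 0.0398. TERF2 itself was raised unevenly in young cells, at 128, 307 and 149 CPM. The summed level of the 8 fibroblast markers was also higher with TRF2. In young cells it was 23099 to 24299 CPM with the empty vector and 27420 to 30390 CPM with TRF2. In senescent cells it was 20121 to 23572 CPM and 25516 to 31726 CPM. Of the 8 markers, 1 was called higher and 0 lower in young cells, beside 0.177% of all genes called in either direction. In senescent cells 7 of the 8 were called higher, beside 4.87% of all genes. The 4 markers of dividing cells were called lower there, beside 6.41% of all genes, from sums of 52.2 to 63.2 CPM to 29.9 to 34.6 CPM. The fit of only the 6 senescent libraries called 0.0137% of all genes. The part of these lists in the result for MFAP4 was not tested.

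The fibrillins had higher values with TRF2 in senescent cells without passing the test. FBN1 stood at 511, 462 and 195 CPM with the empty vector and 598, 596 and 660 CPM with TRF2, a log2 fold change of 0.67 (SE 0.22, edgeR adjusted p = 0.0645). FBN2 stood at 50.2, 26.7 and 12.0 CPM and 49.2, 59.9 and 49.6 CPM, a log2 fold change of 0.84 (SE 0.30, edgeR adjusted p = 0.0825). Both depended on the empty-vector libraries. Without replicate 1, FBN1 had a log2 fold change of 0.92 (edgeR adjusted p = 0.00609) and FBN2 of 1.46 (edgeR adjusted p = 0.000116), while the share of all genes called went from 11.3% to 27.1%. Without replicate 3, they were 0.35 (edgeR adjusted p = 0.00464) and 0.47 (edgeR adjusted p = 0.0672). Over the alternatives the adjusted p ran from 1.07e-08 to 0.34 for FBN1 and from 3.51e-11 to 0.369 for FBN2. ELN had a log2 fold change of 0.68 with a 95% interval of -0.22 to 1.59 (edgeR adjusted p = 0.307) on counts of 3 to 12.

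In young cells with TRF2, ELN stood at 34.1, 27.3 and 31.2 CPM, a log2 fold change of 0.02 with a 95% interval of -0.26 to 0.29. FBN2 and MFAP4 were the 2 genes whose young libraries did not overlap, beside 23.6% of all genes. In senescent cells they were the 3 genes FBN1, FBLN5 and MFAP4, beside 26.8% of all genes. The interaction of TRF2 with state, in which the length of exposure to TRF2 also differs, was tested in the same model. It called none of the 10 genes and 1.13% of all genes. No member had an unadjusted p below 0.05 there with edgeR, FBN1 at 0.0522 coming closest, and DESeq2 also called 0. Without senescent empty-vector replicate 1, FBN1 (log2 difference 0.91, edgeR adjusted p = 0.049) and FBN2 (1.29, edgeR adjusted p = 0.00556) passed, where the alternatives ran from 0.000687 to 0.471 and from 0.00237 to 0.59. The share of all genes called was then 12.8%. For MFAP4 the difference between the 2 states was -0.27 on the log2 scale, with a 95% interval of -0.73 to 0.19.

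**Figure D4:**
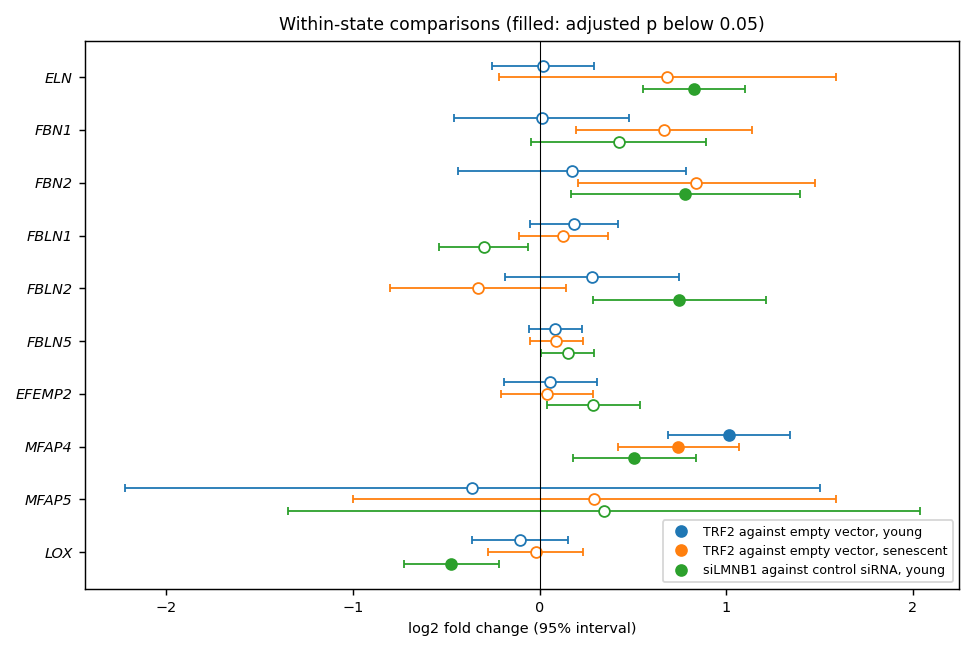
Log2 fold changes of the 10 genes with 95% intervals for TRF2 in young cells, TRF2 in senescent cells and siLMNB1 in young cells, with filled points for an adjusted p below 0.05. MFAP4 is filled in all 3 comparisons, at 1.01, 0.74 and 0.51, and ELN, FBN2, FBLN2 and LOX are filled for siLMNB1 only, which is no test of a difference between the comparisons.

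Other genes of the pathway were followed in 5 lists of 52 genes. In the list of microfibril and elastin-binding proteins, 7 of 13 tested genes rose with siLMNB1 and 1 fell, beside 16.4% and 16.1% of all genes. EFEMP1 (fibulin-3) rose from 136 ± 10.7 to 374 ± 14.6 CPM (log2 fold change 1.46), the proteoglycan gene DCN by 0.93 and LTBP4, which helps to deposit elastin through FBLN5, by 0.87. LTBP1, which ties latent TGF-beta to microfibrils, was the gene that fell (-0.49). With TRF2 in senescent cells, 6 of 13 rose and 0 fell, beside 4.87% and 6.41% of all genes. The 3 genes with the largest log2 fold changes were VCAN (1.06), EMILIN2 (1.02) and DCN (0.97), an order that changed when 1 library was left out. VCAN stood at 196, 165 and 57.9 CPM with the empty vector and at 280, 294 and 301 CPM with TRF2. Without empty-vector replicate 3, VCAN had a log2 fold change of 0.70, EMILIN2 of 1.30 and DCN of 0.92. The call of VCAN was lost without any 1 of the TRF2 libraries, and that of EMILIN2, which rested on 13 to 44 counts in a senescent library, without empty-vector replicate 2 or TRF2 replicate 1 or 2. In young cells with TRF2, DCN alone was called (0.77), from 212 ± 23.1 to 363 ± 65.7 CPM, and its call was lost without any 1 of the 6 libraries but TRF2 replicate 3.

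No call of the 5 lists with TRF2 in senescent cells held when only the 6 libraries compared were fitted. That fit with edgeR called 0 genes of any list and 2 genes of all those tested (0.0137%). With 1 library left out, 3 to 7 microfibril genes rose, 0 to 5 genes of cross-linking rose and 1 to 3 fell, 2 to 4 proteases fell, 1 to 2 genes of the receptor list rose and 1 to 4 fell, and 0 to 1 ligand rose and 0 to 1 fell. The share of all genes called in the same refits ran from 4.45% to 27.1%, the latter without empty-vector replicate 1.

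Among 11 tested genes of cross-linking, processing and assembly, 5 rose with siLMNB1 and 0 fell, beside 16.4% and 16.1% of all genes. ADAMTS10 (1.15) and ADAMTSL4 (1.10), both linked with fibrillin microfibrils, and the lysyl oxidase homologue LOXL3 (0.80) had the largest log2 fold changes, while LOX itself fell. With TRF2 in senescent cells 2 rose and 3 fell, beside 4.87% and 6.41% of all genes, of which LOXL4 fell by 0.57 and ADAMTSL4 by 0.50 on the log2 scale and LOXL3 rose by 0.56. LOXL4 lost its call without TRF2 replicate 2 or 3 and with the offsets, ADAMTSL4 without TRF2 replicate 1 or 3, and LOXL3 without TRF2 replicate 2. None was called with TRF2 in young cells, where 4 had an unadjusted p below 0.05 with edgeR and DESeq2 called 0.

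Of 7 tested elastin-degrading proteases, 2 rose with siLMNB1, the cathepsins CTSS (0.76) and CTSK (0.55), a share near the 32.5% of all genes called. CTSS lost its call without control replicate 2 or siLMNB1 replicate 1 or 3. With TRF2 in senescent cells 3 fell and 0 rose, beside 6.41% and 4.87% of all genes. CTSK fell by 1.41, CTSL by 0.73 and the membrane metalloprotease MMP14 by 0.55 on the log2 scale. MMP14 lost its call when any 1 of the 6 libraries but empty-vector replicate 1 was left out. CTSK stood at 75.6 ± 3.52 CPM in young and 50.4 ± 14.7 CPM in senescent cells with the empty vector, and at 94.7 ± 10.1 and 19.0 ± 1.97 CPM with TRF2. It was the only gene of the 5 lists called for the interaction of TRF2 with state (log2 difference -1.73, SE 0.22, edgeR adjusted p = 0.00465), beside 1.13% of all genes. There DESeq2 called 3 proteases lower, 1 microfibril gene higher, and 1 higher and 2 lower genes of the receptor list, beside 3.52% of all genes.

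Of 9 genes of the elastin receptor and integrins, 3 rose and 3 fell with siLMNB1, beside 16.4% and 16.1% of all genes. The integrin chain ITGB1 fell from 2677 ± 73.6 to 769 ± 30.5 CPM (log2 fold change -1.80) and ITGA8 had a log2 fold change of -1.01, whereas ITGB3 rose by 0.75. With TRF2 in senescent cells 1 rose and 2 fell, beside 4.87% and 6.41% of all genes. ITGA8 rose by 1.50, from 20.6 ± 6.78 to 58.2 ± 3.01 CPM, and ITGB3 (-0.66) and ITGA5 (-0.34) fell, the latter not without TRF2 replicate 1. Of the 3 TGF-beta ligands, growth factors known to raise elastin production, TGFB2 was called in both comparisons, with log2 fold changes of 0.98 with siLMNB1 and 1.22 with TRF2 in senescent cells. The call with siLMNB1 was lost without any 1 of the 6 libraries. In senescent cells TGFB2 stood at 40.0, 16.9 and 9.10 CPM with the empty vector and at 50.6, 58.2 and 44.4 CPM with TRF2. Its fold of 2.33 went to 3.96 without empty-vector replicate 1 and to 1.80 without replicate 3, and its call was lost without empty-vector replicate 2 or TRF2 replicate 1 or 2. In young cells with TRF2, edgeR called 0 proteases, 0 genes of the receptor list and 0 ligands, of which 3, 3 and 0 had an unadjusted p below 0.05. DESeq2 called 1, 0 and 0 there, beside 1.08% of all genes. Between the states, without a test, the 5 lists had median log2 differences of -0.35 to 0.76 with the empty vector, beside 0.02 over all genes. With TRF2 in both states they ran from -0.62 to 0.34, beside -0.02. The protease list went from 0.18 with the empty vector to -0.62 with TRF2, and the ligands from 0.76 to 0.27.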

How the data were processed

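RNA-seq libraries of MRC-5 cells were grouped by their labels. Reads had been trimmed by the authors (Trimmomatic 0.39) and aligned to GRCh38 (STAR 2.6.1d), and the deposited values are raw counts of reads per gene, not normalized. The annotation release and the strand setting are not given in the sources used here. Genes were named, and exons placed, with GENCODE 44, in which 324 entries of the table have no gene. Counts were normalized with TMM, filtered with filterByExpr and fitted over all libraries, with 1 mean per group, with edgeR 4.0.16 (limma 3.58.1, R 4.3.3). Comparisons used its quasi-likelihood test at 0.05, after Benjamini-Hochberg adjustment of p over 15799 genes. DESeq2 1.42.0 served for an alternative, and Python 3.11.15 for windows and figures. CPM used the library's counts in genes that passed the filter, times its TMM factor, and CPM per kb the union of exons.

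The members, the lists and the tests were chosen with earlier results of these data known. Named besides the 10 members and the targeted genes were genes sharing exons with a member, up to 3 called genes of each list and comparison with the largest absolute log2 fold change and the 5 protein-coding genes nearest to ELN in log2 difference. The grouping by exonic overlap, the genes of the low-overlap class, LTBP1 and the neighbours of ELN were chosen after their values were seen. Replicates of each group differed by more than sampling noise. Between the counts of a pair of libraries, the chi-square per degree of freedom was 3.60 to 7.88 in young empty-vector cells. It was 37.9 to 131 in senescent empty-vector cells and at most 26.4 in the other groups. The main fit used the same estimate of spread for a gene in all groups, so senescent libraries also entered the intervals of comparisons within young cells. Only the fit and test of the siLMNB1 comparison were tried on simulated data, drawn with the same spread for a gene in all groups. The other comparisons, the grouping by exonic overlap and the promoter windows were not simulated. Alternatives were DESeq2, RLE size factors, no filter, only the libraries compared, a replicate block, loess offsets for GC content and length (span 0.3), a fold change threshold and each library left out in turn. Running them for the 5 wider lists was chosen after seeing the data.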

Additional observations from a re-analysis of the deposited data

How the results depend on the processing

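With siLMNB1, where 5 of 10 genes were called, the number was 3 with the added fold change threshold of 0.58, 8 with offsets for GC content and length, 9 when only the libraries compared were fitted, and 2 to 4 when 1 library was left out. Of all genes, 32.5% were called in the main fit and 38.9% with the offsets. The share was 55.4% with only those libraries and 24.4% to 26% with 1 library left out. With TRF2 in senescent cells, where 1 was called, the number was 2 with DESeq2, 3 without the filter on low counts, 3 with the offsets, 0 with only the libraries compared, and 1 to 3 when 1 library was left out. There the share of all genes was 11.3% in the main fit, 15.2% with DESeq2, 8.28% without the filter and 15.6% with the offsets. It was 0.0137% with only those libraries and 4.45% to 27.1% with 1 library left out. With TRF2 in young cells the number was 0 or 1 when 1 library was left out, and for the interaction 2 without the filter and 0 to 2 when 1 library was left out. Beside these, 0.00615% to 0.111% of all genes were called in young cells with 1 library left out. For the interaction the share was 3.01% without the filter and 0.0369% to 12.8% with 1 library left out. The log2 differences between the states, given without a test, moved with the offsets to -8.04 for ELN, -1.20 for FBLN1, -0.55 for FBLN2, 0.70 for EFEMP2, 1.27 for MFAP4, 2.01 for MFAP5 and -0.38 for LOX with the empty vector. With TRF2 they moved to -7.26 for ELN, -0.70 for FBN1, -1.19 for FBLN1, -1.01 for FBLN2, 0.83 for EFEMP2 and -0.44 for LOX. Leaving out 1 library gave, with the empty vector, -8.07 to -7.18 for ELN, -3.43 to -2.45 for FBN2, 0.12 to 0.15 for FBLN5 and 1.25 to 1.57 for EFEMP2, and with TRF2, -0.68 to -0.61 for FBN1, 0.10 to 0.17 for FBLN5 and 1.66 to 4.42 for MFAP5. The cause was not tested.

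Replicate numbers are shared between the groups in the labels, but same-numbered libraries did not deviate together, with correlations of -0.203 to 0.056. With a replicate block the calls were 5 for siLMNB1, 1 for TRF2 in young cells, 1 for TRF2 in senescent cells and 0 for the interaction, and the block changed no call of a member. Over all genes, the calls with TRF2 in young cells went from 28 to 170 with DESeq2, 256 without the filter, 474 with only the libraries compared, 60 with the offsets and 1 to 18 with 1 library left out. In senescent cells they went from 1782 to 2 with only the libraries compared and to between 722 and 4411 with 1 library left out, and for the interaction from 179 to 556, 955 and 8 with DESeq2, no filter and only those libraries, 346 with the offsets, and 6 to 2089 with 1 library left out. With siLMNB1 they went from 5137 to 8019 with only the libraries compared. Depth limits ELN in senescent libraries, at 3 to 12 counts, and MFAP5 in all, at 0 to 16 counts.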
